A study of Mus musculus with 12 samples.

Results

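The 37 genes described here encode the mTOR signaling pathway and the translation machinery it controls, from the PI3K and AKT kinases upstream through the TSC complex, Rheb and the mTOR complexes to the S6 kinases, the 4E-BPs, eIF4F, eIF2 and eEF2. They were taken from a list of gene symbols matched to the Ensembl identifiers of the count files and are 37 of 55421 genes listed and of 22592 tested. The study sequenced poly(A) RNA of hippocampus from 12 mice of 6 months of age, 3 in each of 4 groups. WT-Veh and WT-Nut3 were wild-type mice and KO-Veh and KO-Nut3 were Fmr1-KO mice, a model of fragile X syndrome, and Veh mice received vehicle and Nut3 mice Nutlin-3, an inhibitor of MDM2, the ubiquitin ligase that degrades P53. According to the methods all animals were on the C57B/L6 background and received 5 intraperitoneal injections at 2 months of age, Nutlin-3 being given at 10 mg/kg, so that the tissue was taken months after the last dose. The methods describe Fmr1-/y males and wild-type littermates, for some experiments with a Nestin-GFP transgene, and whether the sequenced animals carried it was not given in the sources used here. Gene positions are those of GENCODE M21 on mm10 and give the whole gene. Each library is named by its group and the number in its title (library number), such as KO-Nut3 RH6. The labels and the methods do not say what this number stands for.

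mTOR is a kinase that works in a pair of complexes. mTORC1, which holds Raptor, promotes cap-dependent translation by phosphorylating the S6 kinases and the 4E-BPs, which otherwise hold the cap-binding factor eIF4E away from eIF4G. mTORC2, which holds Rictor, phosphorylates AKT, and AKT in turn relieves the brake that the TSC complex places on Rheb, the GTPase that activates mTORC1. In fragile X syndrome the RNA-binding protein FMRP, which represses translation of many neuronal mRNAs, is missing, and the pathway is known to be overactive in FMRP-deficient hippocampus at the level of protein and phosphorylation. RNA counts of whole tissue report neither phosphorylation nor protein, so the values below answer only whether the mRNAs of the pathway differed in abundance. In bulk tissue, fewer cells of a type and less RNA per cell cannot be told apart.

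Fmr1 itself (chrX:68678541-68717963) was checked first. Its level was 79.5, 75.3 and 77.7 CPM in WT-Veh, 75.2, 73.97 and 78.3 CPM in WT-Nut3, 32.7, 32.5 and 37.3 CPM in KO-Veh and 30.6, 28.5 and 35.7 CPM in KO-Nut3 (CPM, counts per 1000000 reads after TMM scaling). Every KO library was below every WT library, and on average the level fell by 57.1%, so reads of the gene remained in KO. Over all libraries the KO mice had a log2 fold change of -1.22 (SE 0.055, 95% interval -1.34 to -1.10, unadjusted P = 7.6e-13, adjusted P = 1.7e-08) in the quasi-likelihood test of edgeR. The libraries held 17150820 to 20040482 reads on genes, and the lowest count of any of the 37 genes in any library was 22.

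Libraries that stand apart are described before the comparisons. Markers of the choroid plexus epithelium, the secretory tissue of the ventricles that borders the hippocampus, were all tested (14 of 14), with Ttr, which encodes transthyretin, the most abundant. Their summed level was 3659.6, 396 and 5225 CPM in KO-Nut3 RH6, RH8 and RH13 and 4890.2 CPM in WT-Nut3 RH9, against 34.5 to 59.6 CPM in the other 8 libraries, where only Kcnj13 was at 0 in any library. KO-Nut3 is the only group in which all 3 libraries were raised, and KO-Veh had none, so in KO-Nut3 against KO-Veh the treatment and this tissue cannot be told apart. KO-Nut3 RH6 also had a higher sum of the 5 thalamic markers, 315 CPM against 126 to 149.7 CPM in the other 11 libraries, led by Slc17a6, the vesicular glutamate transporter of thalamic neurons, at 113 against 8.42 to 22.2 CPM. Tcf7l2 and Rora were also highest there, while Prkcd and Ntng1 lay within the range of the other libraries. The 5 interneuron markers summed to 876 CPM in KO-Nut3 RH6 against 698 to 780.0 CPM in the others, and 4 of them had their highest level there, among them Gad2, the GABA-synthesizing enzyme, at 275 against 147 to 181 CPM, while Sst had its lowest. The 6 markers of CA pyramidal neurons summed to 470.0 CPM in KO-Nut3 RH6 and to 632 to 749.9 CPM elsewhere. Markers of the labelled tissue were present in every library, with CA pyramidal sums as given and dentate granule sums of 247 to 419.9 CPM. KO-Nut3 RH6 had the lowest sum of the 5 general neuronal markers, 4125 against 4775 to 5419 CPM, the highest of the 5 oligodendrocyte markers, 5750.2 against 3363 to 5571 CPM, and the lowest of the 5 microglia markers, 197 against 212 to 258 CPM. Of the neuronal markers Slc17a7 was at 916 CPM there against 1393 to 1695 CPM elsewhere. Tubb3 instead had its highest level there, 221 against 177 to 205 CPM, and Snap25 lay within the range of the others. WT-Veh RH2 stood at the opposite end, with the lowest oligodendrocyte sum, 3363 CPM (5 of 5 markers lowest), the highest neuronal sum, 5419 CPM, the highest dentate granule sum, 419.9 CPM, and the lowest ependymal sum, 11.9 against 15.7 to 41.7 CPM. Of the 37 genes, 7 had their highest and 3 their lowest level in WT-Veh RH2. Of the same 37, 8 had their lowest and 5 their highest level of the 12 libraries in KO-Nut3 RH6. Such counts were not particular to these libraries: WT-Nut3 RH14 held 6 highest and 1 lowest, and KO-Veh RH16 held 2 highest and 6 lowest. The plot of markers by library sets the choroid plexus, thalamic and CA pyramidal sums beside Deptor and Agap2, which had their extreme values in the same library.

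**Figure D1:**
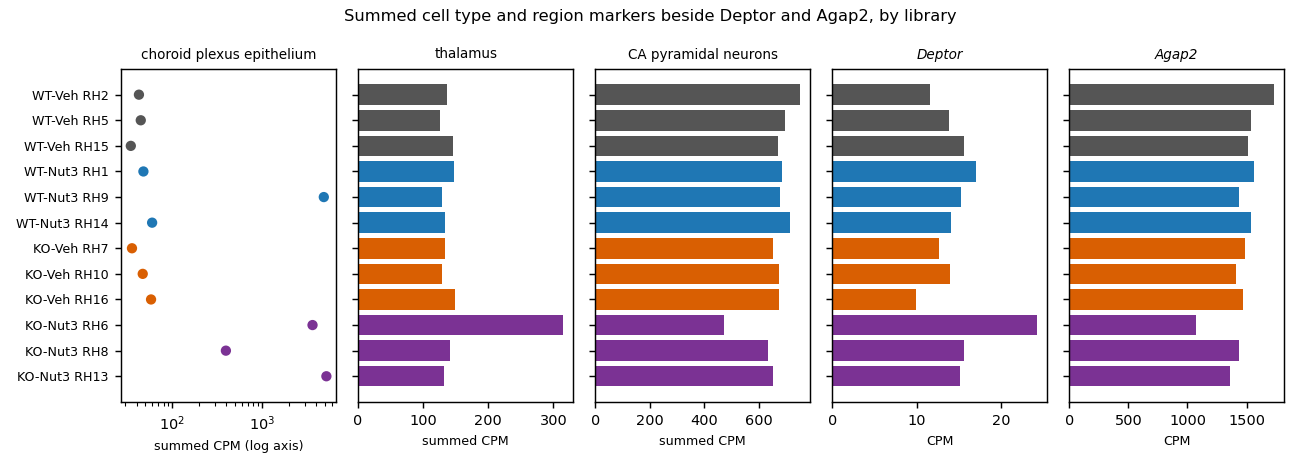
Summed CPM of the choroid plexus markers (log axis), the thalamic markers and the CA pyramidal markers, and CPM of Deptor and Agap2, with 1 point or bar per library coloured by group. KO-Nut3 RH6 has the highest thalamic sum (315 CPM), the lowest CA sum (470.0 CPM), the highest Deptor (24.3 CPM) and the lowest Agap2 (1072 CPM), and choroid plexus markers are raised in 4 libraries.

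All 37 genes were expressed in the hippocampus, and their levels spanned a wide range that was closely repeated from library to library. To compare genes, CPM was divided by the merged exon length of each gene in kb, and the values are means ± SD over the 12 libraries. Within groups, the spread of log2 CPM had a median SD of 0.078 over the 37 genes against 0.23 over all genes tested, and 35 of the 37 genes varied less than the median gene. The 37 genes were also more abundant, with 36 of 37 above the median gene and a median level of 94.4 CPM against 6.57 CPM.

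Among the upstream genes, Agap2, a brain-enriched GTPase that enhances PI3K and whose mRNA is a known FMRP target, was by far the most abundant at 246 ± 26.1 CPM per kb, 18.6-fold (range 13.95 to 20.3) the level of Mtor (median ratio over libraries). Akt1 reached 40.2 ± 1.42 CPM per kb and its paralog Akt2 12.7 ± 1.05 CPM per kb. Pdpk1, the kinase that activates AKT and the S6 kinases, was at 15.7 ± 0.619 CPM per kb. For PI3K, the regulatory subunit Pik3r2 at 37.4 ± 2.52 CPM per kb exceeded Pik3r1 at 11.1 ± 0.543 CPM per kb, and the catalytic subunits Pik3ca and Pik3cb were lower at 7.85 ± 0.488 and 6.05 ± 0.367 CPM per kb. Pik3cb, like Agap2, is known as an mRNA bound by FMRP.

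Mtor was at 13.3 ± 0.903 CPM per kb, Rptor, the scaffold of mTORC1, at 7.20 ± 0.305, Rictor, the scaffold of mTORC2, at 5.30 ± 0.201 and Mlst8, a subunit of both, at 4.02 ± 0.331 CPM per kb. The inhibitor Akt1s1 (PRAS40) was at 16.6 ± 0.649 CPM per kb, and the inhibitor Deptor, at 1.68 ± 0.396 CPM per kb, was among the lowest of the list. Tsc2, the GTPase-activating subunit of the TSC complex, was 2.27-fold (range 1.90 to 2.53) the level of its partner Tsc1. Their target Rheb was at 12.7 ± 0.522 CPM per kb. In Mlst8, 22.5% of the exon length is shared with Bricd5 on the other strand, and in Tsc2 7.20% is shared with Pkd1. The strands were counted together, and reads ambiguous between genes, 4.95% to 5.32% per library, were left out. Reads in those stretches may therefore be missing, and the levels of these genes may be too low.

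In the kinase arm, Mapk3 (ERK1) was at 65.3 ± 3.24 CPM per kb. The eIF4E kinases that it activates were lower, Mknk2 (MNK2) at 13.7 ± 2.03 and Mknk1 (MNK1) at 7.29 ± 0.531 CPM per kb, a ratio of 1.99-fold (range 1.47 to 2.38) that was 1.29-fold (range 0.954 to 1.54) with the longest transcript as the length. The S6 kinases Rps6kb1 and Rps6kb2 were at 7.15 ± 0.314 and 6.90 ± 0.338 CPM per kb, and 23.7% of the exon length of Rps6kb2 overlaps Ptprcap. Their ratio was 1.01-fold (range 0.929 to 1.16) with the merged exons and 1.399-fold (range 1.29 to 1.62) with the longest transcript, so Rps6kb1 was higher in every library only with the latter. The RSK kinases Rps6ka1 and Rps6ka2 were at 3.18 ± 0.370 and 6.75 ± 0.452 CPM per kb.

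The translation factors held both the highest and the lowest level. Eef2, the elongation factor that moves the ribosome along the mRNA, led the list at 317 ± 24.4 CPM per kb, 48.2-fold (range 46.1 to 59.1) the level of Eef2k, the kinase that inactivates it. The helicase Eif4a2, the main neuronal form, was at 108 ± 3.27 CPM per kb, 1.96-fold (range 1.85 to 2.26) the level of Eif4a1. With the longest transcript as the length the ratio was 2.83-fold (range 2.67 to 3.25). The scaffolds were at 57.6 ± 2.16 (Eif4g2), 48.3 ± 1.75 (Eif4g1) and 27.3 ± 1.46 (Eif4g3) CPM per kb. Eif4e, the cap-binding factor, at 15.7 ± 0.407 CPM per kb was close to its repressor Eif4ebp2 at 16.6 ± 0.919 CPM per kb. With the longest transcript as the length Eif4e was the higher, at 18.9 against 16.6 CPM per kb. Eif4ebp1, the paralog that prevails in many peripheral tissues, had the lowest level of the list at 0.816 ± 0.229 CPM per kb, and Eif4ebp2 was 21.02-fold (range 13.4 to 31.5) its level. Eif2s1, the alpha subunit of eIF2, was at 6.998 ± 0.475 CPM per kb, and its kinases Eif2ak4 (GCN2) and Eif2ak3 (PERK) were at 5.07 ± 0.245 and 4.06 ± 0.277 CPM per kb. Eef2, Agap2, Eif4a2 and Mapk3 kept ranks 1 to 4 and Eif4ebp1, Deptor, Rps6ka1, Mlst8 and Eif2ak3 ranks 37 to 33 with either length. Eif4a1, Eif4e and Eef2 have processed copies in the genome, and reads shared with such copies may have been left out of their counts. The plot of levels by role shows that the 4 groups overlay one another for most genes.

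**Figure D2:**
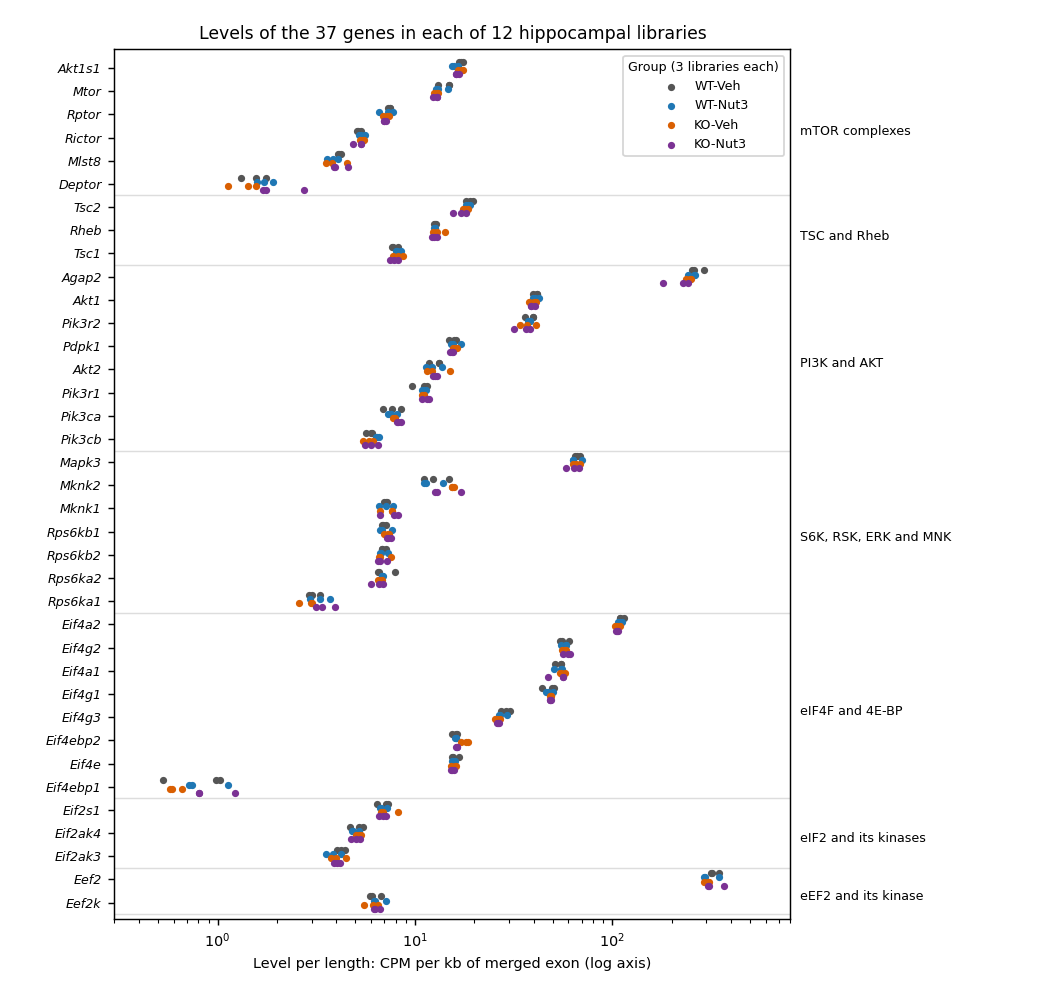
Level per length of the 37 genes (CPM per kb of merged exon, log axis), grouped by role, with 1 point per library in the colour of its group (3 libraries each). Levels run from Eif4ebp1 (0.816 CPM per kb) to Eef2 (317 CPM per kb), and the groups lie close together within each gene.

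All estimates below are log2 fold changes. The first question was whether loss of FMRP altered the pathway's mRNAs. Over all 12 libraries, with treatment as a term, none of the 37 genes passed the threshold of an adjusted P under 0.05, in edgeR or in DESeq2, against 0.00443% of all genes in edgeR (Fmr1 only) and 26 genes in DESeq2. At an unadjusted P under 0.05, 2 genes were higher and 4 lower in KO, where 3.8% and 4.36% of all genes were. The median log2 fold change of the 37 was -0.0049 (all genes 0.0057), and 18 were above 0 and 19 below. The estimates were narrow: the 95% intervals of 33 of the 37 genes lay within a 1.2-fold change in either direction, the exceptions being Mknk2, Agap2, Deptor and Eif4ebp1, and those of 36 lay within 1.5-fold, the exception being Eif4ebp1. None of the 37 genes had 6 KO libraries that were all above or all below the 6 WT libraries (groups that do not overlap, seen in 0.536% of all genes).

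Mknk2 (chr10:80665327-80678112), the kinase that phosphorylates eIF4E, had the lowest P of the 37. Its levels were 43.5, 47.9 and 57.7 CPM in WT-Veh, 43.3, 53.8 and 44.2 CPM in WT-Nut3, 59.8, 61.6 and 59.9 CPM in KO-Veh and 50.5, 66.8 and 49.4 CPM in KO-Nut3. The KO-Veh libraries lay above all WT-Veh libraries and close together, whereas WT-Veh RH15 and WT-Nut3 RH9 exceeded the lower KO-Nut3 libraries. The KO mice had a log2 fold change of 0.26 (SE 0.084, 95% interval 0.080 to 0.44, unadjusted P = 0.0075, adjusted P = 0.44). Without KO-Nut3 RH8, its highest library, the estimate was 0.19. With no filter on low counts Mknk2 passed the threshold (adjusted P = 0.011).

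Lower in KO on average were Agap2, Eif4g3, Mtor and Tsc2, of which none passed the adjusted threshold. All 4 had their highest level of the 12 libraries in WT-Veh RH2, the library with the lowest oligodendrocyte and the highest neuronal sum, and without it the estimates were -0.16 for Agap2, -0.084 for Eif4g3, -0.10 for Mtor and -0.089 for Tsc2. Agap2 (chr10:127075284-127093169) was at 1733, 1536 and 1509.9 CPM in WT-Veh, 1567, 1432 and 1539 CPM in WT-Nut3, 1488, 1413 and 1468 CPM in KO-Veh and 1072, 1439 and 1358 CPM in KO-Nut3. KO-Nut3 RH6 was the lowest library and the WT and KO ranges met only at WT-Nut3 RH9 and the upper KO libraries. Its log2 fold change of -0.18 (SE 0.065, 95% interval -0.32 to -0.041, unadjusted P = 0.014, adjusted P = 0.48) became -0.12 without KO-Nut3 RH6. The level of Mtor (chr4:148448611-148557683) was 150.2, 149.9 and 132 CPM in WT-Veh, 148, 132 and 129 CPM in WT-Nut3, 126, 133 and 132 CPM in KO-Veh and 131, 131 and 125 CPM in KO-Nut3. WT-Veh RH2 and RH5 and WT-Nut3 RH1 were at 148 CPM or above, and the other 3 WT libraries lay in the range of the KO libraries (125 to 133 CPM). KO mice had a log2 fold change of -0.11 (SE 0.045, 95% interval -0.21 to -0.019, unadjusted P = 0.022, adjusted P = 0.52) for Mtor, with both WT groups divided in the same way by library number, since the high libraries have numbers of RH5 and below. With library number (RH8 and below or RH9 and above) as a term the estimate was -0.11 (unadjusted P = 0.0105).

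Eif4g3 (chr4:137993022-138208508), a scaffold of eIF4F, was at 336, 319 and 302 CPM in WT-Veh, 324, 296 and 300.3 CPM in WT-Nut3, 288, 299 and 283 CPM in KO-Veh and 292, 287 and 294 CPM in KO-Nut3. In vehicle and in Nutlin-3 mice alike, the KO libraries were all below the WT libraries of the same treatment. The pooled estimate was a log2 fold change of -0.11 (SE 0.038, 95% interval -0.19 to -0.024, unadjusted P = 0.015, adjusted P = 0.49). Tsc2 (chr17:24595816-24632630) was at 189, 182 and 174 CPM in WT-Veh, 179, 174 and 183 CPM in WT-Nut3, 179, 168 and 172 CPM in KO-Veh and 150.2, 165 and 175 CPM in KO-Nut3. KO-Nut3 RH6 was again the lowest, with a pooled log2 fold change of -0.10 (SE 0.041, 95% interval -0.19 to -0.011, unadjusted P = 0.029, adjusted P = 0.55). Eif4ebp2 (chr10:61428491-61452661), the 4E-BP of brain, was with Mknk2 the other gene higher in KO at an unadjusted P under 0.05, at 88.8, 93.6 and 95.1 CPM in WT-Veh, 92.9, 92.00 and 93.98 CPM in WT-Nut3, 105, 107 and 98.6 CPM in KO-Veh and 94.9, 93.5 and 94.8 CPM in KO-Nut3. The 3 KO-Veh libraries were the highest of the 12, and the KO-Nut3 libraries lay among the upper WT values. The pooled estimate was a log2 fold change of 0.093 (SE 0.038, 95% interval 0.012 to 0.17, unadjusted P = 0.028, adjusted P = 0.55).

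**Figure D3:**
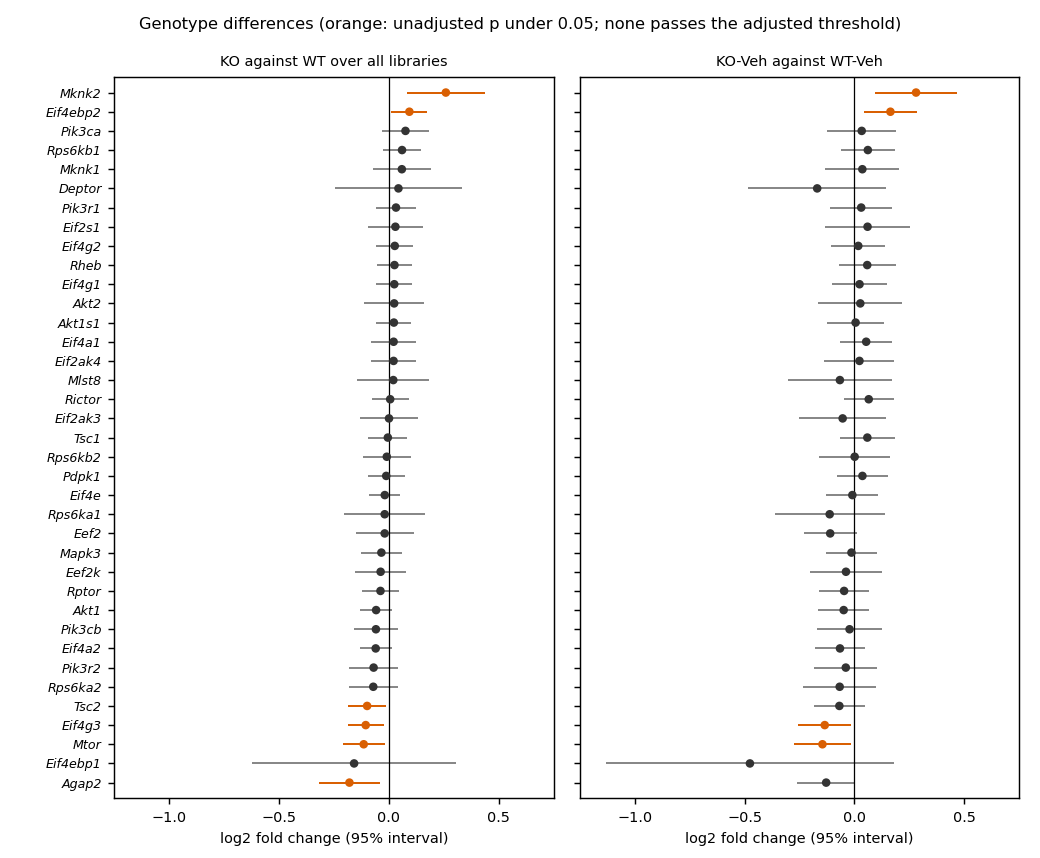
Log2 fold change of each of the 37 genes with its 95% interval, KO against WT over all 12 libraries (left) and KO-Veh against WT-Veh (right), ordered by the left estimate, with genes at an unadjusted P under 0.05 in orange. Most estimates sit near 0, with Mknk2 highest at 0.26 and 0.28 and a wide interval for Eif4ebp1.

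In vehicle-treated mice alone, KO-Veh against WT-Veh, none of the 37 genes passed the adjusted threshold in edgeR or in DESeq2 (0.0177% of all genes in edgeR and 22 genes in DESeq2). At an unadjusted P under 0.05, 2 were higher and 2 lower, against 3.08% and 4.12% of all genes. The median log2 fold change was -0.0097 (all genes -0.0043). In 5 of 37 genes the groups did not overlap (12.4% of all genes). Mknk2 and Eif4ebp2 were the genes higher in KO-Veh, Mknk2 with a log2 fold change of 0.28 (SE 0.087, 95% interval 0.093 to 0.47, unadjusted P = 0.0065, adjusted P = 0.61) and Eif4ebp2 with a log2 fold change of 0.16 (SE 0.056, 95% interval 0.042 to 0.28, unadjusted P = 0.012, adjusted P = 0.62). With no filter on low counts Mknk2 passed here too (adjusted P = 0.015). Eif4g3 had a log2 fold change of -0.14 (SE 0.056, 95% interval -0.26 to -0.015, unadjusted P = 0.0298, adjusted P = 0.67) and Mtor a log2 fold change of -0.15 (SE 0.061, 95% interval -0.28 to -0.016, unadjusted P = 0.031, adjusted P = 0.67). For Mtor, KO-Veh RH10 was just above WT-Veh RH15, so its groups overlapped, while those of Eif4g3 did not. Agap2 and Eef2 were also lower in every KO-Veh library than in any WT-Veh library, at estimates of -0.13 and -0.11 (unadjusted P = 0.053 and 0.071). Both were highest of the WT-Veh libraries in RH2. Agap2 was at 1733 CPM there against 1536 and 1509.9 CPM in RH5 and RH15, and Eef2 at 1159 against 1059.6 and 1053 CPM.

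In Nutlin-3-treated mice, KO-Nut3 against WT-Nut3, none of the 37 passed in edgeR or in DESeq2 (0.00443% of all genes in edgeR and 7 genes in DESeq2), and none had an unadjusted P under 0.05 (4.87% of all genes). The median was -0.013 (all genes 0.0049). The lowest P belonged to Agap2, with a log2 fold change of -0.24 (SE 0.11, 95% interval -0.49 to 0.020, unadjusted P = 0.067, adjusted P = 0.93), which was -0.11 without KO-Nut3 RH6. Tsc2 followed with a log2 fold change of -0.14 (SE 0.066, 95% interval -0.28 to 0.014, unadjusted P = 0.070, adjusted P = 0.93), which was -0.074 without that library. Pik3ca (chr3:32397671-32468486), the p110 alpha catalytic subunit, was at 62.3, 69.3 and 77.2 CPM in WT-Veh, 66.1, 73.4 and 68.6 CPM in WT-Nut3, 72.2, 70.4 and 71.2 CPM in KO-Veh and 77.6, 73.8 and 74.4 CPM in KO-Nut3. All 3 KO-Nut3 libraries were above the WT-Nut3 libraries, and the difference was a log2 fold change of 0.11 (SE 0.064, 95% interval -0.032 to 0.26, unadjusted P = 0.11, adjusted P = 0.93). The groups did not overlap in 3 of 37 genes (10.7% of all genes). The vehicle and the Nutlin-3 comparison share no library, and their estimates had the same sign in 24 of 37 genes (64.9%), against 54.5% of all genes tested.

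**Figure D4:**
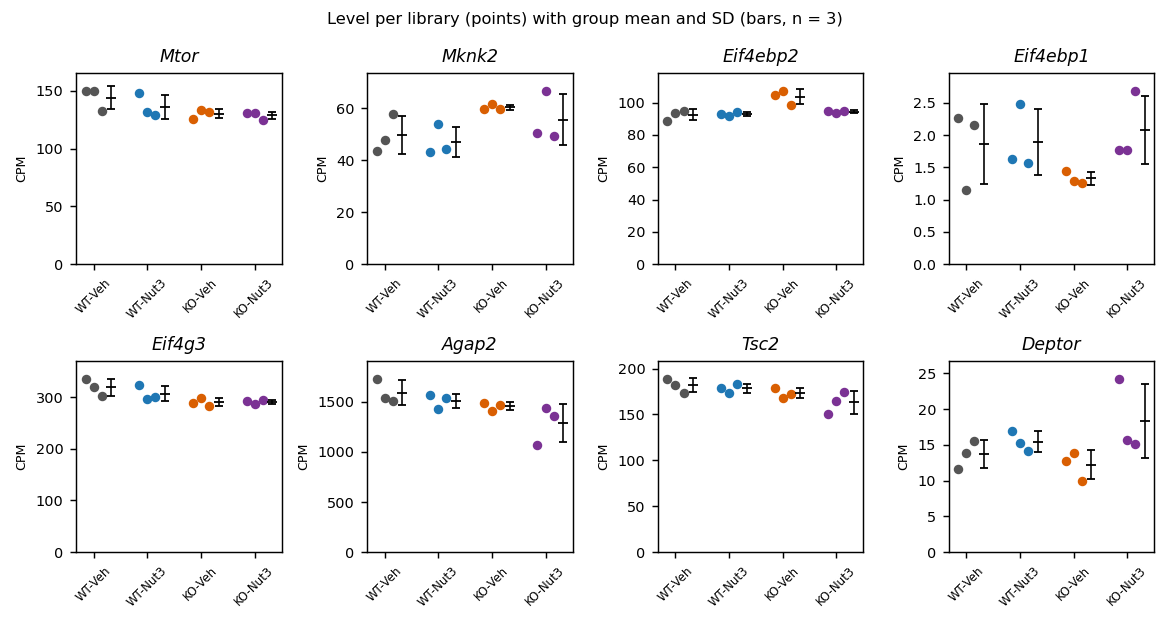
CPM in each library (points, from 0) of Mtor, Mknk2, Eif4ebp2, Eif4ebp1, Eif4g3, Agap2, Tsc2 and Deptor in the 4 groups, with group mean and SD (n = 3). Eif4ebp2 is highest in the KO-Veh libraries (98.6 to 107 CPM), and 1 KO-Nut3 library sets the extremes of Deptor and Agap2.

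The second question was whether transient Nutlin-3 left a lasting mark on the pathway. In KO mice, KO-Nut3 against KO-Veh, none of the 37 genes passed the adjusted threshold in edgeR or in DESeq2, against 0.199% of all genes in edgeR and 230 genes in DESeq2. At an unadjusted P under 0.05, 3 were higher and 1 lower (5.75% and 1.85% of all genes), and in 6 of 37 the groups did not overlap (13.3%). The median log2 fold change was -0.025 (all genes 0.0034), with 13 genes above 0 and 24 below. The 95% intervals of 26 genes lay within 1.2-fold and of 35 within 1.5-fold, the exceptions to the latter being Eif4ebp1 and Deptor.

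Deptor (chr15:55112317-55259271), the inhibitor bound to mTOR in both complexes, was at 11.6, 13.9 and 15.6 CPM in WT-Veh, 16.99, 15.3 and 14.1 CPM in WT-Nut3, 12.7, 13.9 and 9.97 CPM in KO-Veh and 24.3, 15.6 and 15.1 CPM in KO-Nut3. The 3 KO-Nut3 libraries were above the KO-Veh libraries, and KO-Nut3 RH6, the library with the raised thalamic sum, was above the range of the WT mice while KO-Veh RH16 was below it. The difference was a log2 fold change of 0.59 (SE 0.20, 95% interval 0.15 to 1.02, unadjusted P = 0.014, adjusted P = 0.45), and without KO-Nut3 RH6 it was 0.33 (adjusted P = 0.79). The part of thalamic tissue in this value was not tested. With no filter on low counts Deptor passed the threshold (adjusted P = 0.027).

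Eif4ebp1 (chr8:27260329-27276674) was at 2.27, 1.16 and 2.16 CPM in WT-Veh, 1.62, 2.48 and 1.57 CPM in WT-Nut3, 1.45, 1.30 and 1.25 CPM in KO-Veh and 1.77, 1.78 and 2.69 CPM in KO-Nut3. These are low levels, and the WT-Veh libraries alone ranged from 1.16 to 2.27 CPM. KO-Nut3 exceeded KO-Veh in every library, with a log2 fold change of 0.64 (SE 0.27, 95% interval 0.028 to 1.25, unadjusted P = 0.042, adjusted P = 0.63). Without KO-Nut3 RH13 the estimate was 0.41, and when the score of the choroid plexus markers was added to the model over all libraries the estimate was 0.14 (unadjusted P = 0.74). Its paralog Eif4ebp2 had a log2 fold change of -0.14 (SE 0.057, 95% interval -0.26 to -0.0078, unadjusted P = 0.0398, adjusted P = 0.63). The 3 KO-Nut3 values, 94.9, 93.5 and 94.8 CPM, were all below the KO-Veh values, 105, 107 and 98.6 CPM, and within the WT range of 88.8 to 95.1 CPM. KO-Nut3 against WT-Nut3 gave 0.017 (unadjusted P = 0.75) for this gene. Rps6ka1 (RSK1, chr4:133847290-133887797) was at 12.4, 14.1 and 12.9 CPM in WT-Veh, 15.8, 12.5 and 14.1 CPM in WT-Nut3, 12.6, 11.1 and 12.8 CPM in KO-Veh and 16.8, 13.4 and 14.3 CPM in KO-Nut3. KO-Nut3 was above KO-Veh in every library, with a log2 fold change of 0.29 (SE 0.12, 95% interval 0.0095 to 0.57, unadjusted P = 0.044, adjusted P = 0.64), and KO-Nut3 RH6 was the highest of the 12. Without it the estimate was 0.19.

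In WT mice, WT-Nut3 against WT-Veh, none of the 37 genes passed in edgeR or in DESeq2, and no gene of the 22592 tested did (0% in either tool, with 717 genes at an unadjusted P under 0.05 in edgeR). None of the 37 was at an unadjusted P under 0.05 (3.17% of all genes). The median was -0.0047 (all genes 0.00017), and the intervals of 30 genes lay within 1.2-fold. Pik3cb (chr9:99036654-99140621), the p110 beta catalytic subunit, came nearest at 42.9, 40.8 and 43.5 CPM in WT-Veh, 46.4, 45.8 and 47.1 CPM in WT-Nut3, 43.9, 42.1 and 39.3 CPM in KO-Veh and 46.97, 40.3 and 43.1 CPM in KO-Nut3. The 3 WT-Nut3 libraries were above the WT-Veh libraries, and the KO groups overlapped. The estimate was a log2 fold change of 0.13 (SE 0.061, 95% interval -0.00032 to 0.27, unadjusted P = 0.0505, adjusted P = 0.998). Akt1s1, the mTORC1 inhibitor PRAS40, was at 53.6, 51.1 and 52.4 CPM in WT-Veh, 51.02, 47.5 and 48.4 CPM in WT-Nut3, 53.01, 50.7 and 53.9 CPM in KO-Veh and 49.7, 49.8 and 51.7 CPM in KO-Nut3. WT-Nut3 was below WT-Veh in every library, with a log2 fold change of -0.093 (SE 0.060, 95% interval -0.22 to 0.039, unadjusted P = 0.15, adjusted P = 0.998). The eIF2 kinase Eif2ak3 was at 25.5, 24.4 and 26.8 CPM in WT-Veh, 25.6, 21.3 and 23.3 CPM in WT-Nut3, 24.1, 27.01 and 22.7 CPM in KO-Veh and 25.3, 23.4 and 24.2 CPM in KO-Nut3. WT-Nut3 RH9 held the lowest value, the groups overlapped, and the estimate was a log2 fold change of -0.12 (SE 0.093, 95% interval -0.33 to 0.080, unadjusted P = 0.21, adjusted P = 0.998). It was -0.063 without WT-Nut3 RH9 and -0.19 without WT-Nut3 RH1. The groups did not overlap in 3 of 37 genes (7.52% of all genes). The Nutlin-3 difference had the same sign in KO and in WT mice, which share no library, in 27 of 37 genes (73.0%), against 53.02% of all genes.

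**Figure D5:**
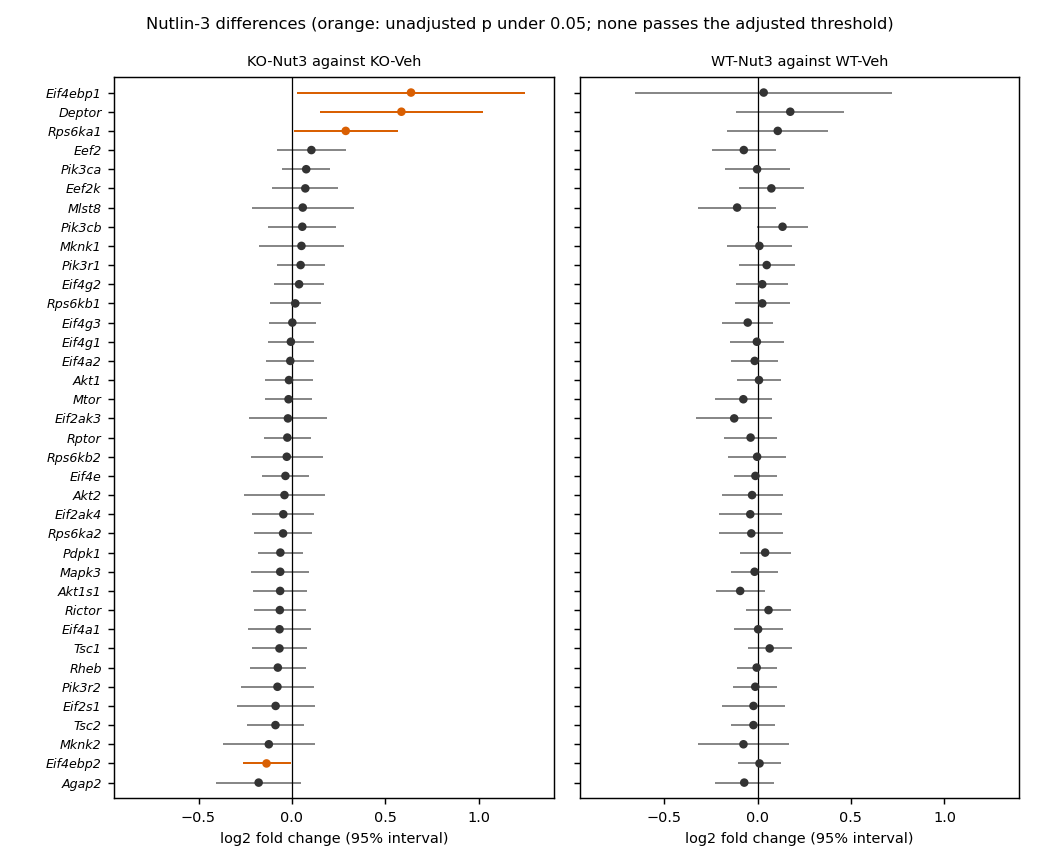
Log2 fold change of each of the 37 genes with its 95% interval, KO-Nut3 against KO-Veh (left) and WT-Nut3 against WT-Veh (right), ordered by the left estimate, with genes at an unadjusted P under 0.05 in orange. Eif4ebp1 (0.64), Deptor (0.59) and Rps6ka1 (0.29) are highest on the left, and no gene is orange on the right.

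Treated KO mice were also set against untreated WT mice. In KO-Nut3 against WT-Veh none of the 37 genes passed in edgeR or in DESeq2 (0.00443% of all genes in edgeR and 210 genes in DESeq2), none was higher and 2 were lower at an unadjusted P under 0.05 (5.61% and 3.55% of all genes), and in 6 of 37 the groups did not overlap (15%). The median was -0.0086 (all genes 0.011). Agap2 had a log2 fold change of -0.30 (SE 0.11, 95% interval -0.56 to -0.048, unadjusted P = 0.025, adjusted P = 0.47) and Mtor a log2 fold change of -0.16 (SE 0.068, 95% interval -0.31 to -0.0058, unadjusted P = 0.043, adjusted P = 0.53). Without KO-Nut3 RH6 the Agap2 estimate was -0.19. Deptor had a log2 fold change of 0.42 (SE 0.19, 95% interval -0.014 to 0.86, unadjusted P = 0.056, adjusted P = 0.56), which was 0.16 without KO-Nut3 RH6. This comparison shares its libraries with those above. Summed choroid plexus markers were at 42.5, 44.5 and 34.5 CPM in WT-Veh and at 3659.6, 396 and 5225 CPM in KO-Nut3. The groups therefore differed in this tissue as well as in genotype and treatment.

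Whether Nutlin-3 acted differently in the genotypes was tested by the interaction over all 12 libraries. None of the 37 genes passed in edgeR or in DESeq2 (0% of all genes in edgeR and 1 gene in DESeq2), and none was at an unadjusted P under 0.05 (942 of all genes, 4.17%). Eif4ebp2 came nearest, with an interaction on the log2 scale of -0.14 (SE 0.071, 95% interval -0.29 to 0.012, unadjusted P = 0.067, adjusted P = 0.99). Deptor followed at 0.42 (SE 0.26, adjusted P = 0.99), which was 0.15 without KO-Nut3 RH6, and Tsc1 at -0.13 (SE 0.080, adjusted P = 0.99). Tsc1 (chr2:28641228-28691167), which stabilizes Tsc2, was at 92.1, 97.1 and 90.4 CPM in WT-Veh, 100.1, 95.2 and 96.6 CPM in WT-Nut3, 102, 96.6 and 92.00 CPM in KO-Veh and 97.00, 92.9 and 88.6 CPM in KO-Nut3. All 4 groups overlapped. The intervals of 18 genes lay within 1.2-fold here, so a difference in response of that size was within the error for the other 19.

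The remaining core genes lay close together across groups. Rptor was at 100.3, 100.3 and 98.2 CPM in WT-Veh, 104, 88.3 and 98.5 CPM in WT-Nut3, 97.1, 92.8 and 99.2 CPM in KO-Veh and 94.2, 94.5 and 96.1 CPM in KO-Nut3. WT-Nut3 RH9 was the lowest library, and the KO against WT estimate was -0.038 (SE 0.040, adjusted P = 0.85). Rictor, at 86.4, 90.2 and 86.7 CPM in WT-Veh, 88.2, 90.7 and 94.8 CPM in WT-Nut3, 94.00, 89.2 and 92.1 CPM in KO-Veh and 82.5, 90.6 and 90.6 CPM in KO-Nut3, gave 0.0058 (SE 0.040, adjusted P = 0.98). Among the pairs compared, only KO-Nut3 and WT-Veh did not overlap, and only for Rptor, which was lower in KO-Nut3. Rps6kb1 (chr11:86498871-86544805), the S6 kinase whose phosphorylation is a usual readout of mTORC1, was at 59.6, 61.7 and 59.2 CPM in WT-Veh, 57.9, 59.02 and 66.4 CPM in WT-Nut3, 63.4, 64.3 and 60.5 CPM in KO-Veh and 62.2, 63.3 and 65.4 CPM in KO-Nut3. KO-Nut3 was above WT-Veh in every library, the other pairs overlapped, and the KO against WT estimate was 0.060 (SE 0.041, adjusted P = 0.75). Eif4e varied little, at 92.9, 99.96 and 93.7 CPM in WT-Veh, 93.1, 94.2 and 96.3 CPM in WT-Nut3, 92.04, 96.01 and 96.6 CPM in KO-Veh and 94.6, 92.6 and 91.2 CPM in KO-Nut3. All 12 libraries lay between 91.2 and 99.96 CPM, and the KO against WT estimate was -0.019 (SE 0.033, 95% interval -0.089 to 0.052). Eef2 was at 1159, 1059.6 and 1053 CPM in WT-Veh, 1153, 969.5 and 979 CPM in WT-Nut3, 1032, 975 and 1022 CPM in KO-Veh and 1223, 1016 and 1023 CPM in KO-Nut3. KO-Nut3 RH6 was the highest, and KO against WT gave -0.019 (SE 0.062, adjusted P = 0.96). Its kinase Eef2k, at 44.7, 49.9 and 43.8 CPM in WT-Veh, 53.1, 46.00 and 46.3 CPM in WT-Nut3, 48.4, 45.2 and 41.02 CPM in KO-Veh and 46.1, 49.1 and 46.6 CPM in KO-Nut3, gave -0.038 (SE 0.054, adjusted P = 0.90), and its groups overlapped.

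The wider pathway was described with 5 further lists, which hold 109 genes beyond the 37 and were all tested. None of the 109 passed the adjusted threshold in any of the 7 comparisons, and their lowest adjusted P was 0.38. In KO-Veh against WT-Veh 3 were higher and 3 lower at an unadjusted P under 0.05 (3.08% and 4.12% of all genes), their median was 0.0049 (all genes -0.0043) and 55 of 109 were above 0. In KO-Nut3 against KO-Veh 2 were higher and 2 lower (5.75% and 1.85% of all genes), with a median of -0.00085 (all genes 0.0034). The counts of each list below are read against the same shares of all genes. The 31 genes of amino acid and nutrient sensing (Rag GTPases, Ragulator, GATOR) had no gene at an unadjusted P under 0.05 in KO-Veh against WT-Veh and 1 lower in KO-Nut3 against KO-Veh. The 30 upstream PI3K, AKT and AMPK genes had 3 higher and none lower, and then 1 and 1. Of the 35 downstream translation factors 0 were higher and 2 lower, and then none in either direction. The list of ATF4, the transcription factor translated when eIF2 is phosphorylated, held 17 genes, Atf4 itself and targets of ATF4. It had 1 higher and 1 lower, and then 2 higher, among them Eif4ebp1, which is one of the 37. Some genes, such as Ddit4, are in more than 1 list and were counted in each.

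Of these 109 genes, Ddit4 (REDD1, a stress-induced inhibitor of mTORC1) had the lowest P in KO-Veh against WT-Veh. It was at 55.4, 61.9 and 65.4 CPM in WT-Veh, 57.6, 66.2 and 53.5 CPM in WT-Nut3, 75.6, 70.5 and 66.5 CPM in KO-Veh and 67.8, 76.2 and 54.8 CPM in KO-Nut3. KO-Veh lay above WT-Veh in every library, with a log2 fold change of 0.22 (SE 0.072, 95% interval 0.063 to 0.37, unadjusted P = 0.0094, adjusted P = 0.61). Prr5, a subunit of mTORC2, followed with a log2 fold change of 0.54 (SE 0.18, 95% interval 0.14 to 0.93, unadjusted P = 0.011, adjusted P = 0.62) at 7.69, 9.53 and 9.001 CPM in KO-Veh and 4.30, 6.57 and 7.11 CPM in WT-Veh, and without WT-Veh RH2, its lowest library, the estimate was 0.35. Atf5, a stress transcription factor, had a log2 fold change of -0.27 (SE 0.092, 95% interval -0.47 to -0.071, unadjusted P = 0.012, adjusted P = 0.62), at 17.03, 16.9 and 17.7 CPM in KO-Veh and 20.2, 21.6 and 20.4 CPM in WT-Veh. The groups did not overlap in any of these 3 genes, which were picked for their low P (12.4% of all genes did not overlap). In KO-Nut3 against KO-Veh, Slc7a11, the cystine-glutamate exchanger and an ATF4 target, had the lowest P of the 109, with a log2 fold change of 0.53 (SE 0.17, 95% interval 0.15 to 0.90, unadjusted P = 0.011, adjusted P = 0.42), at 67.3, 93.9 and 54.04 CPM in KO-Nut3 and 52.4, 45.7 and 51.1 CPM in KO-Veh. KO-Nut3 RH8 was the highest, and without it the estimate was 0.28, and with no filter on low counts it passed the threshold (adjusted P = 0.0025). RH8 and WT-Veh RH5, where Slc7a11 was 73.96 CPM, also had the highest summed fibroblast markers, 182 and 145 CPM against 44.2 to 107 CPM elsewhere (6 of 6 markers tested, Dcn the most abundant, none at 0). Summed mural cell markers were highest in the same libraries, 226 and 199 CPM against 134 to 169 CPM elsewhere (4 of 4 markers tested, Rgs5 the most abundant, 1 at 0 in some library). The part of these cells in the value was not tested. Prkab2, a subunit of AMPK, had a log2 fold change of -0.25 (SE 0.082, 95% interval -0.43 to -0.068, unadjusted P = 0.012, adjusted P = 0.43) and Kptn, a subunit of KICSTOR, a log2 fold change of -0.24 (SE 0.10, 95% interval -0.45 to -0.021, unadjusted P = 0.035, adjusted P = 0.61). Both, picked for their low P, were lower in every KO-Nut3 library than in any KO-Veh library (13.3% of all genes did not overlap).

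Nutlin-3 stabilizes P53, and 6 of its known targets that act on mTOR were examined (Sesn1, Sesn2, Ddit4, Prkab1, Igfbp3 and Tsc2, which is one of the 37). None passed the adjusted threshold in any comparison. In KO-Nut3 against KO-Veh all 6 estimates were below 0, with a median of -0.093 (all genes 0.0034) and none at an unadjusted P under 0.05, and in WT-Nut3 against WT-Veh 2 were above and 4 below, with a median of -0.014. How far single libraries weighed on this tally was not tested. Sesn1 was at 58.3, 66.0 and 68.3 CPM in KO-Nut3 and at 68.9, 71.3 and 73.6 CPM in KO-Veh. Its groups did not overlap (13.3% of all genes), while those of the other genes did. Sesn1, Igfbp3 and Tsc2 had their lowest level of the 12 libraries in KO-Nut3 RH6 (58.3, 12.5 and 150.2 CPM). In KO-Nut3 RH6, RH8 and RH13, Ddit4 was at 67.8, 76.2 and 54.8 CPM and Sesn2 at 21.6, 23.4 and 17.4 CPM. In KO against WT over all libraries, 6 of the 109 genes were higher (Prr5, Ddit4, Paip2, Sgk1, Ppp1r15b and Grb10) and 4 lower (Ulk1, Cyfip2, Atf5 and Depdc5) at an unadjusted P under 0.05, against 3.8% and 4.36% of all genes, and 61 of 109 were above 0. Grb10 was at 69.1 CPM in KO-Nut3 RH6, against 39.2 to 43.6 CPM in the other KO libraries and 31.9 to 42.8 CPM in the WT libraries. Sgk1 was at 58.3, 76.2 and 61.0 CPM in WT-Veh RH2, WT-Veh RH5 and WT-Nut3 RH1. It was at 109 to 137 CPM in the other WT libraries and at 104 to 147 CPM in KO. Ulk1, the autophagy kinase that mTORC1 inhibits, was named after its values were seen, at 105, 105 and 105 CPM in WT-Veh, 101, 99.6 and 103 CPM in WT-Nut3, 96.7, 97.03 and 92.5 CPM in KO-Veh and 97.2, 89.9 and 97.97 CPM in KO-Nut3. Its 6 KO libraries were all below its 6 WT libraries, with a log2 fold change of -0.12 (SE 0.034, 95% interval -0.19 to -0.045, unadjusted P = 0.0035, adjusted P = 0.42). Ulk1 was picked for its low P, and 0.536% of all genes had groups that did not overlap in this comparison. Cyfip2, a partner of FMRP, likewise named afterwards, had a log2 fold change of -0.15 (SE 0.044, 95% interval -0.24 to -0.058, unadjusted P = 0.0035, adjusted P = 0.42), and Atf5, described above, had a log2 fold change of -0.21 (SE 0.070, 95% interval -0.36 to -0.065, unadjusted P = 0.00797, adjusted P = 0.44) in the same comparison. Cyfip2 was highest in WT-Veh RH2 (1103 CPM) and lowest in KO-Nut3 RH6 (841 CPM). Its estimate ran from -0.17 to -0.13 with each library left out in turn.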

How the data were processed

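Raw read counts per gene of 12 libraries were used. The authors deposited counts made with STAR on mm10, per the labels and the methods, with no normalization, and the unstranded column was taken because the strands held near-equal shares of reads. Between 21.2% and 22.6% of reads per library named no gene and were left out. A table of the whole series with the same 12 libraries was not used here. Gene names, positions and lengths came from GENCODE M21.

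Genes with more than 20 counts over the 12 libraries were tested (22592). Counts were scaled with TMM factors and compared in edgeR 4.0.16 (R 4.3.3) by its quasi-likelihood F-test, which is two-sided, on the libraries of the groups concerned. KO against WT and the interaction used all 12. P-values were adjusted over all genes tested by the Benjamini-Hochberg method, with 0.05 as the threshold. The SE is the log2 fold change divided by the root of F, and intervals are 95%. The models were tested on simulated data, of which no outcome is used here. Alternatives were DESeq2 1.42.0, other filters and scaling, all libraries in 1 fit, library number or choroid plexus score as a term, and each library left out. CPM were computed with the TMM factors, log2 CPM with a prior count of 1. Nothing states that the mice of a group came from separate litters. P-values rest on the spread between these mice, with the variance of each gene estimated in part from all genes tested.

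The 37 genes and all lists were chosen with earlier results of these data known. Values per library are given for the 3 genes with the lowest P in each comparison and for 12 core genes (Mtor, Rptor, Rictor, Tsc2, Pik3cb, Agap2, Rps6kb1, Eif4e, Eif4ebp1, Eif4ebp2, Eef2, Eef2k), and other genes were named at an unadjusted P under 0.05. 1 gene of these lists is not reported here. The lists are described by counts and medians without a set test. Marker lists of choroid plexus, thalamus, CA pyramidal neurons, dentate granule neurons, neurons in general, interneurons, oligodendrocytes, microglia, ependyma, mural cells and fibroblasts are given as sums in CPM.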

Additional observations from a re-analysis of the deposited data

How the results depend on the processing

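None of the 37 genes was called in any of the 7 comparisons with DESeq2, DESeq2 size factors, a stricter expression filter, the library number or the choroid plexus score as a term, all 12 libraries in 1 fit, or each library left out in turn. The exception was no filter on low counts (every gene with at least 1 count), which called 1 gene in KO-Veh against WT-Veh and 1 in KO against WT over all libraries (Mknk2 in both) and 1 in KO-Nut3 against KO-Veh (Deptor). The cause was not tested. Over 35 named genes and comparisons other than Fmr1, 524 alternative values were computed, of which 520 kept their direction and stayed short of the threshold, 4 passed it and 0 reversed.

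The number of all genes past the threshold moved more. It was 4 in KO-Veh against WT-Veh, 1 in KO-Nut3 against WT-Nut3, 1 in KO against WT over all libraries, 45 in KO-Nut3 against KO-Veh, 0 in WT-Nut3 against WT-Veh, 1 in KO-Nut3 against WT-Veh and 0 in the interaction as reported. With no filter it was 272 in KO-Veh against WT-Veh, 38 in KO-Nut3 against WT-Nut3, 239 in KO against WT over all libraries, 544 in KO-Nut3 against KO-Veh, 249 in WT-Nut3 against WT-Veh, 416 in KO-Nut3 against WT-Veh and 291 in the interaction. With DESeq2 it was 22 in KO-Veh against WT-Veh, 7 in KO-Nut3 against WT-Nut3, 26 in KO against WT over all libraries, 230 in KO-Nut3 against KO-Veh, 210 in KO-Nut3 against WT-Veh and 1 in the interaction. With all 12 libraries in 1 fit it was 1 in KO-Veh against WT-Veh, 0 in KO-Nut3 against KO-Veh and 2 in KO-Nut3 against WT-Veh, and with the library number as a term 21 in KO-Veh against WT-Veh, 10 in KO against WT over all libraries, 20 in KO-Nut3 against KO-Veh, 11 in WT-Nut3 against WT-Veh and 3 in KO-Nut3 against WT-Veh. The choroid plexus score as a term gave 2 in KO-Nut3 against WT-Nut3, 5 in KO against WT over all libraries, 0 in KO-Nut3 against KO-Veh, 3 in WT-Nut3 against WT-Veh, 3 in KO-Nut3 against WT-Veh and 1 in the interaction. Leaving out each library in turn gave 2 to 10 genes in KO-Veh against WT-Veh, 0 to 7 in KO-Nut3 against WT-Nut3, 1 to 10 in KO against WT over all libraries (highest without KO-Nut3 RH6), 6 to 265 in KO-Nut3 against KO-Veh, 0 to 1 in WT-Nut3 against WT-Veh, 0 to 198 in KO-Nut3 against WT-Veh and 0 to 1 in the interaction. The counts of 265 and 198 were those without KO-Nut3 RH8. Fmr1 kept its direction in every alternative but missed the threshold in KO-Nut3 against WT-Nut3 without WT-Nut3 RH14 (-1.24, adjusted P = 0.102) and in KO-Nut3 against WT-Veh without WT-Veh RH2 (-1.28, adjusted P = 0.052). Leaving out the 4 libraries with choroid plexus markers, tried for KO against WT after the data were seen, removes the whole KO-Nut3 group and therefore does not test that estimate apart from the vehicle comparison. No paired analysis was possible because the groups share no library numbers. With 3 mice per group the 95% intervals, which are not adjusted for the number of genes, set the precision of each estimate.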
